A study of Poecilia latipinna with 15 samples.

Results

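The 8 females of the male-interaction (Mm) context were examined for transcripts whose level in the whole brain followed social affiliation time. They are 8 of the 15 female sailfin mollies (Poecilia latipinna) sequenced, and the other 7 belong to the female-interaction (Ff) context. The Mm females were chosen by the context in their labels alone, as females 3, 4, 5, 6, 10, 11, 12 and 13. All 15 females were sexually experienced adults from an on-campus pond. They were isolated from other fish for 2 weeks and then watched for 30 min, in 2 periods of 15 min. They had no physical contact with their stimulus fish. Mm females were flanked by a large and a small male, and Ff females by a large and a small female. No female was tested without social stimuli, so affiliation is compared among females that were all in company. All had been retained for spending most of the trial near the stimulus fish. Affiliation time was thus bounded below by the minimum set for retention and above by the 30 min of the trial. The same stimulus males were used for all Mm females. Each whole brain gave 1 library, without pooling. In whole-brain RNA, fewer cells of a type and less RNA per cell cannot be told apart.

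The sailfin molly is a live-bearing fish of the Poeciliidae that lives in mixed shoals, in which large males court and small males tend to coerce. Social affiliation was scored as the time in both association zones together, and it measures how long a female stayed near any stimulus fish. The preference score, by contrast, is the proportion of a female's movements toward stimulus fish that she aimed at the one she favored. A female can thus have a high affiliation time with or without favoring either male. Neural systems long linked to social approach in vertebrates include the nonapeptides, dopamine and sex steroid receptors. The deposited identifiers are Ensembl transcripts. The RefSeq genes of the assembly P_latipinna-1.0 carried no Ensembl identifiers, so 0 of the 21671 tested transcripts could be matched to them. Members of those systems, brain cell type markers and transcript sequences were therefore not analysed here, and transcripts are given by identifier only.

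Affiliation time averaged 1620 ± 91.8 s (SD, n = 8). From the lowest to the highest, it was 1512 s in female 6, 1521 s in female 3, 1567 s in female 11, 1611 s in female 4, 1624 s in female 10, 1656 s in female 13, 1672 s in female 5 and 1795 s in female 12. The range of 283 s was thus uneven, with 123 s of it between the highest female and the next. Without female 12 the SD was 63.1 s. In an unweighted straight-line fit on affiliation time the leverage of female 12 was 0.646, where 1 means that a single female fixes the fitted value. The next highest were 0.322 for female 6 and 0.29 for female 3. The other 5 females had leverages from 0.125 to 0.172.

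**Figure D1:**
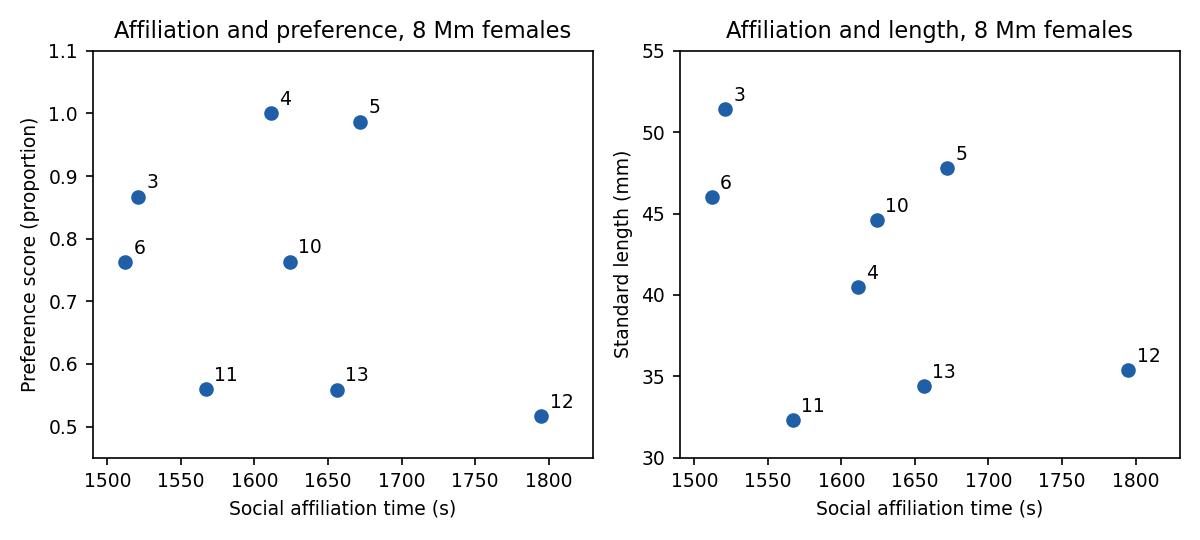
Social affiliation time (s, horizontal axis) of the 8 Mm females against their preference score (left, proportion) and standard length (right, mm), 1 point per female with its number. Female 12, at 1795 s, lies 123 s beyond the next female and has the lowest preference score, 0.516.

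Affiliation time was set beside 9 other measures of the same 8 females, with exact 2-sided permutation tests and Benjamini-Hochberg adjustment over the 18 tests. No relation held after adjustment (lowest adjusted p = 0.719). The relation with standard length had r = -0.435 (exact permutation p = 0.286) and rho = -0.262 (exact permutation p = 0.536), and r was -0.177 without females 6 and 12, the 2 farthest from the median affiliation time. With the female's number r was 0.523 (exact permutation p = 0.181) and rho 0.476 (exact permutation p = 0.243), and r was 0.323 without those 2 females. With the library total r was -0.209 (exact permutation p = 0.607) and rho 0.0476 (exact permutation p = 0.935), and r was -0.547 without them. The relation with the preference score changed from r = -0.327 to 0.0797 when the same 2 females were left out.

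The 8 libraries held 3424641 to 9989142 estimated counts. Between 22698 and 24761 transcripts had an estimated count above 0. The first 3 principal components of expression held 22.5%, 17.4% and 15.5% of the variance. On the first, females 11 and 12 lay together at the positive end (111.4 and 103, arbitrary units), although their affiliation times were 1567 and 1795 s, and the other 6 ran from -77.95 to 5.082. On the third, these 2 females lay at opposite ends (102.5 and -115). The third component had r = -0.517 with affiliation time (exact permutation p = 0.168) and rho = -0.0238 (exact permutation p = 0.977), and r was -0.131 without females 6 and 12. The second component had r = -0.469 (exact permutation p = 0.247) and rho = -0.738 (exact permutation p = 0.0458, adjusted p = 0.719), and r was -0.62 without these females. No relation of these 3 components to affiliation time held after adjustment. With 8 females this does not show that the components are unrelated to affiliation time.

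The question of the main comparison was which transcripts rose or fell with the time that a female spent near males. A total of 21671 transcripts with a TPM (the transcript level scaled by length and by the library) above 2 in 3 or more of the 15 females was tested. The slope is the change in the log2 library-scaled count for each 100 s of affiliation time, and a transcript was called when its unadjusted limma p-value was below 0.05. Of the 21671 transcripts, 1130 were called (5.21%), which is close to the 5% that an even spread of p-values gives (1084 transcripts). With limma's p-values adjusted by Benjamini-Hochberg, 0 transcripts (0%) passed, and the lowest adjusted p was 0.231. On the unadjusted p-value edgeR's quasi-likelihood test called 785 transcripts (3.622%) and DESeq2 1006 (4.644%), and after adjustment 0 remained in edgeR and 12 in DESeq2. An exact Spearman test over every order of the 8 females used the deposited TPM in place of library-scaled counts. It called 809 transcripts (3.73%), 0 of them after adjustment (lowest adjusted p = 0.998). Of the 1130 limma calls, 332 (29.4%) were among them in the same direction. The model of both contexts over all 15 females called 1084 slopes in the Mm context (5.002%), 1 of them after adjustment. A share of calls this near to 5% is at the background level, so the called transcripts are described as a set.

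**Figure D2:**
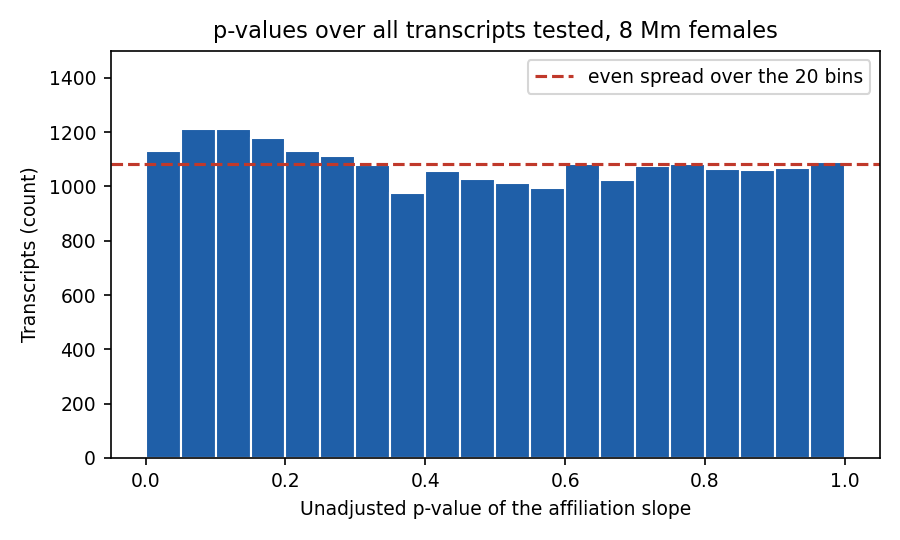
Number of transcripts (vertical axis) in 20 bins of the unadjusted limma p-value (horizontal axis) for the slope on affiliation time in the 8 Mm females. The bin below 0.05 holds 1130 transcripts against 1084 for an even spread (dashed line), and the next 2 bins hold 1211 and 1212.

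Of the called transcripts, 678 rose with affiliation time (3.13% of those tested) and 452 fell (2.09%). Thus 60% rose in limma (95% exact binomial interval 57.1% to 62.9%, for counting error only), but 41.2% in edgeR and 41.9% in DESeq2. On TPM in place of library-scaled counts, 35.5% rose in limma on log2(TPM + 1) and 31.6% in the exact Spearman test. The Spearman share therefore does not show the effect of ranks alone. In limma on library-scaled counts the share was 46.5% with ranks of affiliation time in place of seconds. Without females 6 and 12 it was 49.1%. Whether most calls rose or fell thus differed between tests and scalings, which did not call the same transcripts. Of the 1130 limma calls, 646 were also called by edgeR in the same direction. Without 1 female at a time the rising share in limma ran from 58.2% to 63.2%. The rising calls were steeper, with a median slope of 0.74 (log2 per 100 s), against -0.44 for the falling calls and a median size of 0.13 over all transcripts tested. They also had the lower levels, with a median of 7.15 TPM against 9.85 TPM for the falling calls and 11 TPM (10.99) over all transcripts. In at least 1 Mm female 35.8% of the rising and 21.9% of the falling calls had 0 TPM, against 16.7% of all transcripts. Median transcript length was 1594 bases for the rising calls, 2066 bases for the falling calls and 1782 bases over all transcripts.

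**Figure D3:**
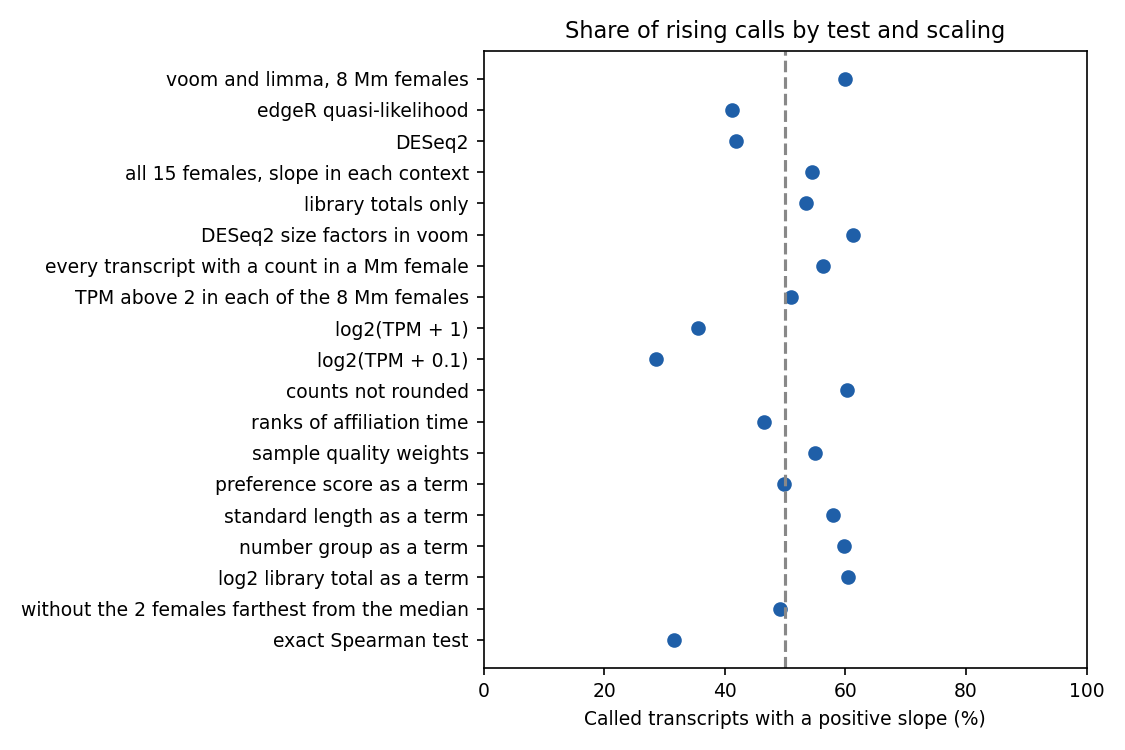
Share of the called transcripts with a positive slope on affiliation time in the 8 Mm females (horizontal axis, %), 1 point for each test, scaling, filter or added term. The share is 60% with voom and limma, 41.2% with edgeR and 28.7% with log2(TPM + 0.1), and the dashed line marks 50%.

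The share called also varied with the mean level in the Mm females. Of the 2135 transcripts under 2 TPM 8.62% were called, and 71.2% of these calls rose in limma but 41.3% in edgeR. To be tested, each of them had a TPM above 2 in 3 or more of the 15 females. Their levels could thus be uneven among the Mm females or close to 2 TPM in all of them, or they passed the filter through Ff females. Which of these held was not measured. This class therefore does not stand for transcripts of low level in general. The share called was 5.91% from 2 to 5 TPM, 4.93% from 5 to 20 TPM, 4.04% from 20 to 100 TPM and 4.53% of the 1346 transcripts over 100 TPM. In this highest class 45.9% of the 61 limma calls and 42.6% of the 61 edgeR calls rose. The median size of the called slopes fell from 1.93 (log2 per 100 s) in the lowest class to 0.22 in the highest. Among the transcripts that passed the filter, large slopes were thus found at low levels, where few estimated counts stand behind each value.

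Which females carried the calls was examined by leaving out 1 at a time. Without female 12, limma called 1102 transcripts (5.085% of those tested), nearly as many as with all 8 females. However, only 227 of the 1130 calls (20.1%) were among them with the same direction, and in 33 of the 1130 the slope changed sign. Without female 3 there were 781 calls (3.604%) and 457 of the 1130 (40.4%) remained. Without female 6 there were 1125 calls (5.191%) and 698 of the 1130 (61.8%) remained. These are the females at the ends of the range of affiliation time. Without any of the other 5 females between 875 and 949 of the 1130 (77.4% to 84%) remained. A total of 214 calls was lost only without female 12, 41 only without female 3, 3 only without female 6 and 2 only without female 10.

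**Figure D4:**
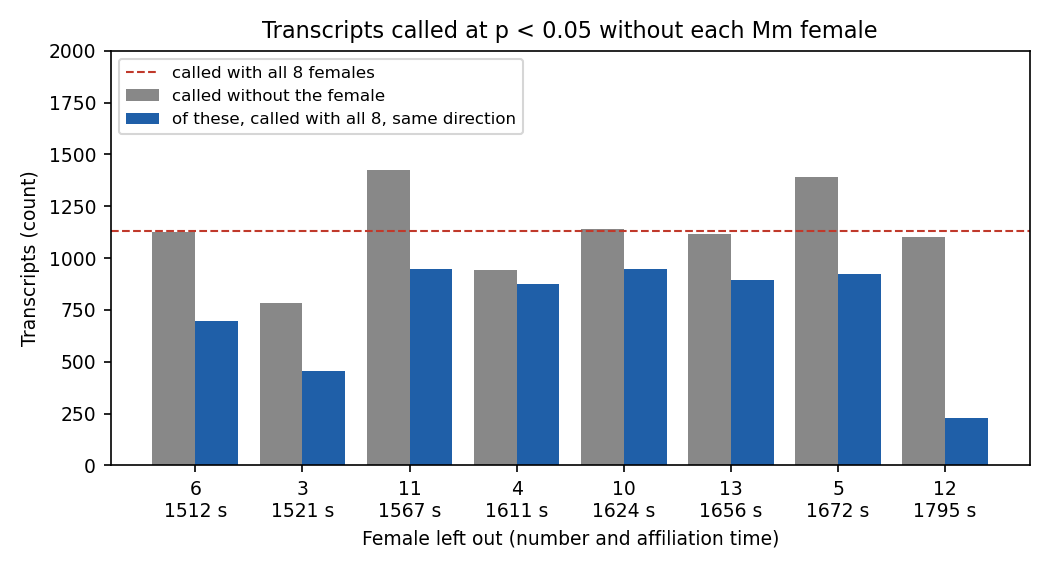
Number of transcripts (vertical axis) called at an unadjusted limma p-value below 0.05 after leaving out each Mm female, ordered by affiliation time (horizontal axis). Grey bars give all calls, blue bars those also called with all 8 females in the same direction, and the dashed line the 1130 calls with all 8. The blue bar is lowest without female 12, at 227.

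Female 12 was the highest or the lowest of the 8 in 71.5% of the called transcripts, against 29% of all transcripts tested. This was so in 86% of the rising and 49.8% of the falling calls. For female 3 these shares were 38.1% of the called and 22% of all transcripts. Over all transcripts the 8 females ranged from 18% (female 5) to 29% (female 12), so that female 12 was only slightly more often at an end than female 13 (28.3%). The calls were made on slopes on affiliation time, where female 12 has a leverage of 0.646 in an unweighted fit. The limma fits weight the values, so leverage in them can differ by transcript. Her higher share among the calls is part of the choice and is given as a description.

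A set of 91 transcripts (8.05% of the 1130) was called in the same direction in each of the 8 fits without a female. Of these, 41 rose with affiliation time and 50 fell. Their median levels were 6.9 TPM (6.901) for the rising and 6.61 TPM for the falling transcripts, and 34.1% had 0 TPM in at least 1 Mm female. Their slopes had a median of 1.08 (log2 per 100 s) for those that rose and -0.67 for those that fell. Female 12 was highest or lowest in 92.7% of the rising and 52% of the falling transcripts of this set. By the rule for naming transcripts, the 2 with the lowest p-value in each direction within this set are described. Their slopes and their stability over the 8 fits are thus a description of the choice. Their rank tests use the same 8 females, so the unadjusted rank p-values given below are not independent of the choice. After adjustment over all transcripts no exact Spearman test passed (lowest adjusted p = 0.998).

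Of the rising transcripts in this set, ENSPLAT00000015056.1 (348 bases) had the lowest limma p-value. In the order of affiliation time its level was 0 TPM in female 6, 0.861 TPM in female 3, 0 TPM in female 11, 15.8 TPM in female 4, 16.6 TPM in female 10, 13.2 TPM in female 13, 20.1 TPM in female 5 and 148 TPM in female 12. The 3 females with the shortest times were thus at or near 0, the next 4 lay within 13.2 to 20.1 TPM, and female 12 was far above them. Its slope was 2.38 (SE 0.275, log2 per 100 s, unadjusted p = 1.07e-05, limma adjusted p = 0.231). In the model over all 15 females the adjusted p was 0.00183 (limma), and this was the single transcript that remained after adjustment there. The Mm slope in that model, 2.39, still rests on the Mm females alone. The 7 Ff females enter it only through the error variance, the weights and the scaling. The adjusted p was 0.000222 in DESeq2 and 1 in edgeR. Without female 12 the slope was 2.97 (limma adjusted p = 0.915), and without females 6 and 12 it was 2.86 (limma adjusted p = 0.992). By ranks rho was 0.886 (exact permutation p = 0.00605).

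In the 7 Ff females ENSPLAT00000015056.1 was listed at 0 TPM in females 1, 2, 7 and 9 and reached 1.86 TPM in female 17, 1.11 TPM in female 8 and 1.18 TPM in female 19. Females 9 and 19 had affiliation times of 1744 and 1763 s, longer than all Mm females but female 12. The 5 Mm females from 1611 s upward, at 13.2 TPM or more, thus did not overlap with any Ff female. These 5 females were also the only ones above 2 TPM, so the transcript passed the filter through Mm females alone, and it was chosen on its Mm slope. Its contrast with the Ff females is therefore a description of the choice. The Ff slope was -0.10 (SE 0.805, limma adjusted p = 0.999). The Mm slope exceeded the Ff slope by 2.49 (SE 0.891, unadjusted p = 0.0142, limma adjusted p = 0.802), so the difference did not hold after adjustment over all transcripts, and its unadjusted p is not independent of the choice on the Mm slope. The same holds for the slope differences of the other 3 named transcripts. Within the Ff females r with affiliation time came to -0.17 (p = 0.714 in an exact permutation test, 0.959 when adjusted for the 8 tests of the 4 named transcripts) and rho to -0.0197 (exact permutation p = 1). Without the 2 Ff females farthest from their median time r was 0.166.

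The other rising transcript, ENSPLAT00000024943.1 (1095 bases), was scarce. It was listed at 0 TPM in females 6, 3, 11 and 4, and stood at 0.186 TPM in female 10, 0.421 TPM in female 13, 1.44 TPM in female 5 and 6.39 TPM in female 12, which rests on 1.083, 2.1, 6.646 and 26.52 estimated counts. The 4 females with the shortest times thus had none, and the other 4 stood in the order of their affiliation times. Its slope was 2.35 (SE 0.35, log2 per 100 s, unadjusted p = 8.2e-05, limma adjusted p = 0.759), a value that depends on the constant voom adds to counts of 0. The adjusted p was 0.308 in DESeq2 and 1 in edgeR. Without female 12 the slope was 2.49 (limma adjusted p = 0.915). By ranks rho was 0.939 (exact permutation p = 0.00119).

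In the Ff females ENSPLAT00000024943.1 was highest, at 9.68 TPM, in female 17, which had the shortest affiliation time of that context, 1506 s. It stood at 3.67 TPM in female 9 and 3.95 TPM in female 19, and at or within rounding of 0 in females 1, 2, 7 and 8. The Ff values thus covered the range of the Mm values. The Ff slope was 0.70 (SE 1.38, limma adjusted p = 0.976). In exact permutation tests r came to -0.0166 (p = 0.986, adjusted to 1) and rho to 0.185 (p = 0.719, adjusted to 0.959). Without females 17 and 19, the 2 farthest from the Ff median time, r was 0.807, so that the Ff value of r turned on these females. The difference of the slopes was 1.67 (SE 1.26, unadjusted p = 0.207, limma adjusted p = 0.899).

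Of the falling transcripts, ENSPLAT00000006264.1 (4089 bases) had the lowest p-value. Its level was 10.2 TPM in female 6, 9.91 TPM in female 3, 3.87 TPM in female 11, 7.5 TPM in female 4, 2.61 TPM in female 10, 1.7 TPM in female 13, 1.97 TPM in female 5 and 1.39 TPM in female 12. The 4 females with the shortest times were thus all above the 4 with the longest, with 23.15 estimated counts or more in every female. Its slope was -1.28 (SE 0.225, log2 per 100 s, unadjusted p = 0.00028, limma adjusted p = 0.759), and the slopes without 1 female ran from -1.47 to -1.18. The adjusted p was 0.0448 in DESeq2 and 1 in edgeR, and it was 0.935 in the model over all 15 females (limma). By ranks rho was -0.952 (exact permutation p = 0.00114).

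In the Ff females ENSPLAT00000006264.1 ran from 0 TPM in female 19 to 21.5 TPM in female 7, and the other 5 lay between 3.66 and 6.13 TPM. The Ff females thus overlapped with the Mm females on both sides. The Ff slope was -0.36 (SE 0.703, limma adjusted p = 0.976). In exact permutation tests r came to -0.59 (p = 0.131, adjusted to 0.525) and rho to -0.5 (p = 0.267, adjusted to 0.575). Without the 2 Ff females farthest from the median time r was -0.727. The Mm slope was below the Ff slope, with a difference of -0.95 (SE 0.777, unadjusted p = 0.244, limma adjusted p = 0.911).

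The other falling transcript, ENSPLAT00000011404.1 (5092 bases), was high only in females 6 and 3, at 5.92 and 5.23 TPM. It stood at 1.06 TPM in female 11, 0.00485 TPM in female 4, 0.0898 TPM in female 10, 0 TPM in female 13, 1.35 TPM in female 5 and at or within rounding of 0 in female 12. Female 5, with the second longest affiliation time, thus stood above 4 females with shorter times. Its slope was -4.03 (SE 0.789, log2 per 100 s, unadjusted p = 0.000615, limma adjusted p = 0.861), again with weight on values at 0. In edgeR the slope was -2.30 (adjusted p = 1) and in DESeq2 -2.46 (adjusted p = 0.753), both smaller in size. The rank test did not pass the threshold (rho = -0.69, exact permutation p = 0.0694). In the Ff females it reached at most 3.2 TPM, in female 2, and was at or within rounding of 0 in females 1, 8, 9 and 19. Ff female 2 and Mm females 6 and 3 were the only ones above 2 TPM. The transcript thus passed the filter only with the Mm females whose high levels make its slope fall. Its slope and its contrast with the Ff females are a description of the choice. The Ff slope was -2.29 (SE 1.01, limma adjusted p = 0.794), of the same sign as in the Mm females. In exact permutation tests r came to -0.448 (p = 0.287, adjusted to 0.575) and rho to -0.667 (p = 0.12, adjusted to 0.525), and r was -0.291 without females 17 and 19. The difference of the slopes was -1.71 (SE 1.34, unadjusted p = 0.225, limma adjusted p = 0.905).

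**Figure D5:**
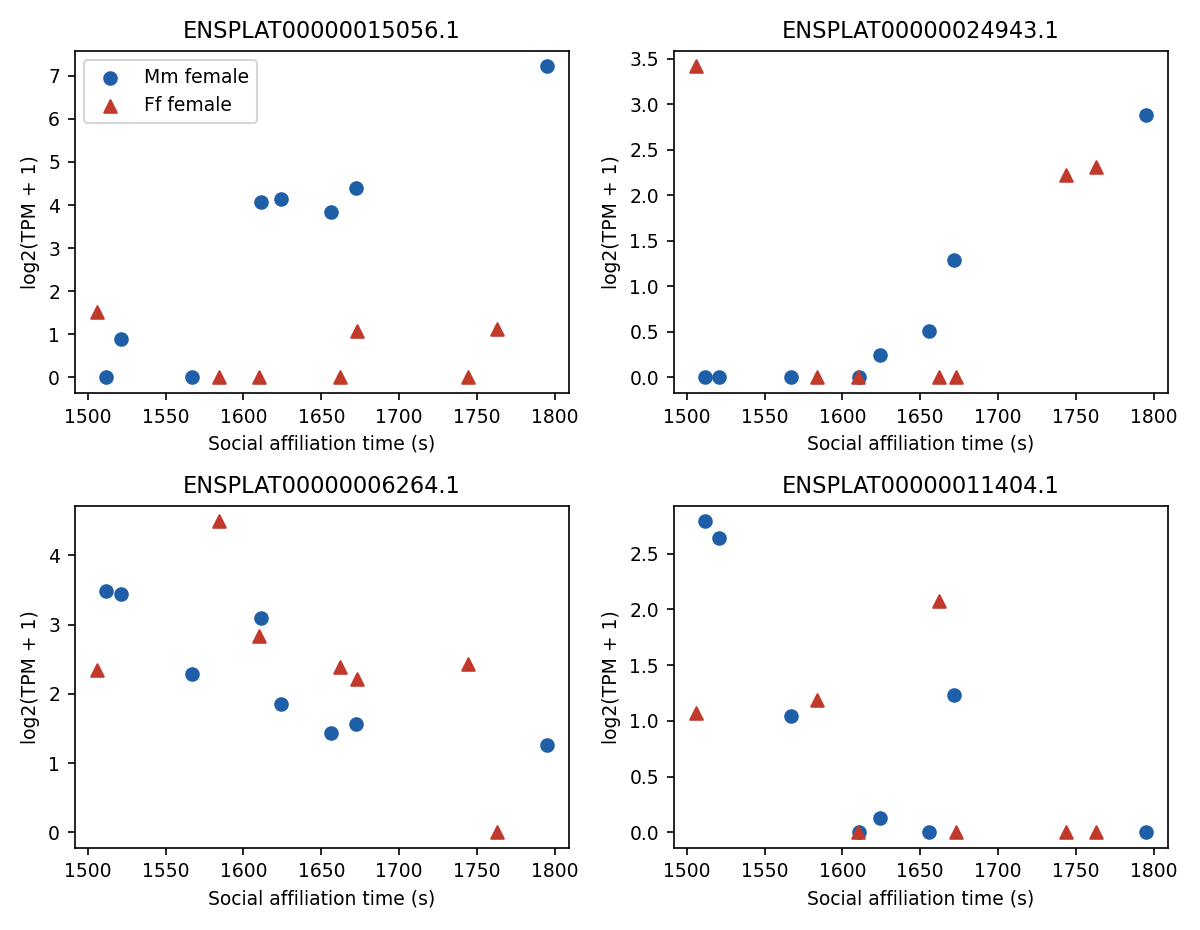
Level of the 4 named transcripts as log2(TPM + 1) (vertical axis) against social affiliation time (s, horizontal axis), with 1 point per female for the 8 Mm (blue circles) and the 7 Ff females (red triangles). For ENSPLAT00000015056.1 the 5 Mm females from 1611 s upward lie above every Ff female, and Mm females 6, 3 and 11 lie within the Ff range. This transcript passed the filter through those 5 Mm females alone and was chosen on its Mm slope. For the other 3 transcripts the contexts also overlap.

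The slopes of the 8 Mm females were set beside those of the 7 Ff females, which share no library with them. In the Ff females alone limma called 1336 transcripts (6.16%), 0 of them after adjustment. Of the 1130 transcripts called in the Mm females, 65 (5.75%) were also called in the Ff females, 31 of them with the same sign. The sign was shared by 10 of the 39 that rose in the Mm females and by 21 of the 26 that fell. Over all transcripts tested it was shared by 661 of the 1336 Ff calls. The difference between rising and falling calls was not tested. Of the 1130 slopes 48.1% had the same sign in the Ff females, against 51.4% over all transcripts tested. Among the 91 transcripts called in all 8 fits without a female the share was 50.5%. Of these 91 transcripts, 4 (4.4%) were called in the Ff females, against 6.16% of all transcripts tested. All 4 fell in both contexts. The signs of the Mm slopes were thus shared with the other context about as often as those of any transcript.

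The difference between the slopes was fitted over all 15 females. It passed the unadjusted p-value in 1320 transcripts (6.09%) in limma and 1167 (5.385%) in edgeR, and in 0 after adjustment in either (lowest adjusted p = 0.685 and 0.898). Without female 12 the limma count was 839 (3.872%). Among the 1130 Mm calls 343 (30.4%) had an unadjusted p-value below 0.05 for the difference. These transcripts were chosen on the Mm slope, which is part of the difference, so this share is not independent of the choice. No transcript can be called particular to the Mm context from these data.

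Other measures of the females were added to the fit 1 at a time. Preference score, standard length, female number and library total had no relation to affiliation time that held after adjustment. With the preference score as a term 806 transcripts were called for affiliation time and 572 of the 1130 (50.6%) remained. With standard length these numbers were 832 and 457 (40.4%), with the number group (females 3 to 6 against females 10 to 13) 799 and 439 (38.9%), and with the log2 library total 898 and 758 (67.1%). Of the transcripts tested, the calls in these fits were 3.72%, 3.84%, 3.69% and 4.14%, in that order. None of these fits gave a call after adjustment (0 in each, limma). The number group is known only from the numbers in the labels, and with 4 females on each side the slopes were not fitted within it. Its own relation to affiliation time was not tested. The preference score was 0.762 to 1 in females 3 to 6 and 0.516 to 0.763 in females 10 to 13, so these 2 terms are not separate. As a description, the 4 named transcripts kept their direction and an unadjusted limma p-value below 0.05 with each of the 4 added terms. They were chosen on their slopes in the same 8 libraries, so this is not independent of the choice. Their limma adjusted p was 0.901 or higher in each of these fits. The slope of ENSPLAT00000015056.1 then ran from 2.39 to 2.5, that of ENSPLAT00000024943.1 from 2.35 to 2.60 and that of ENSPLAT00000006264.1 from -1.3 (-1.304) to -1.09. The slope of ENSPLAT00000011404.1 moved most, from -4.03 without a term to -3.33 with the number group and -2.87 with standard length.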

How the data were processed

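Whole-brain RNA of 15 females was measured by single-end RNA sequencing, 8 in the Mm and 7 in the Ff context. The authors trimmed the reads (cutadapt), pseudoaligned them with kallisto 0.43.0 to Ensembl cDNA and deposited an estimated count per transcript, which can be fractional. Beside it stands the deposited TPM, scaled by effective length and to a fixed total. Of 31813 transcripts 10142 failed the filter of a TPM over 2 in at least 3 females. The tested transcripts held 99.6% of the estimated counts in the Mm libraries. Estimated counts were rounded and analyzed with TMM factors, voom and limma 3.58.1 in R 4.3.3, with edgeR 4.0.16 and DESeq2 1.42.0 as alternatives, and single relations in Python 3.11.15, NumPy 2.4.6 and SciPy 1.17.1. The fit of the 8 Mm females left 6 residual degrees of freedom. Affiliation time, preference score and standard length were read from the behavioral table of the paper. The study sums transcripts by gene, fits both contexts at once and adds a rate from shuffled labels to its call. None of these was the main choice here, since no table pairs transcripts with genes and the comparison concerns the Mm females. Reads that fit several transcripts or paralogs were divided by kallisto alone, so levels of near-identical copies are uncertain. No pair of Mm libraries was close to being the same library (lowest chi-square per degree of freedom 10.7). Scripts were tested on simulated counts. The transcripts named are the 2 in each direction with the lowest p-value among those called in all 8 fits without a female. The females were taken by the context in their labels. This choice, the filter, the tests and the alternatives were made with earlier results of these data known.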

Additional observations from a re-analysis of the deposited data

Results flagged for a closer look

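Dixon's criterion was applied to 22 sets of values, each from 1 context (measures of the females and the levels of the 4 named transcripts). In 6 of the sets a single female stood apart from the rest. In the Mm females these were female 12 for ENSPLAT00000015056.1, at 148 TPM with the next at 20.1 TPM, and female 12 for ENSPLAT00000024943.1, at 6.39 TPM with the next at 1.44 TPM. In the Ff females they were female 17 for ENSPLAT00000024943.1 (9.68 TPM, next 3.95 TPM), female 7 for ENSPLAT00000006264.1 (21.5 TPM, next 6.13 TPM) and female 2 for ENSPLAT00000011404.1 (3.2 TPM, next 1.27 TPM). Female 8 stood apart for the library total (10560000 estimated counts, next 6742000). The criterion's chance rate of about 1 set in 20 holds for normally distributed values. Apart from the library total, these sets held untransformed TPM, which was skewed, with 1 or more females having none. The 6 sets therefore cannot be compared with that rate. The Mm sets are also of transcripts chosen for their rising slopes, and female 12 has the highest leverage on affiliation time (0.646 in an unweighted fit). Her place in them is thus part of the choice.

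For ENSPLAT00000015056.1 the affiliation slopes of the contexts differed by 2.49 (log2 per 100 s, Mm minus Ff) in the test of the difference itself (limma unadjusted p = 0.0142, adjusted p = 0.802). The transcript was chosen on its Mm slope, which is part of this difference, and passed the filter on low levels through Mm females alone, so the unadjusted p is not independent of that choice.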

How the results depend on the processing

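The count of called transcripts, 1130 (5.21% of those tested), ran from 781 to 1592 in 25 of 27 alternatives. In these the share called ran from 3.604% to 6.585%. The count of 1592 came from testing 28194 transcripts (5.647%). The count was 737 (4.967%) with a TPM above 2 in each of the 8 Mm females, which tests 14839 transcripts, and 0 at the adjusted p-value. After adjustment 12 transcripts remained in DESeq2 and 1 in the model over 15 females, and 0 in the other 24 alternatives. The binomial interval of the rising share treats transcripts as independent and serves only as a mark for description. The rising share of 60% moved beyond this interval in 14 of 26 alternatives. It was 41.2% with edgeR, 41.9% with DESeq2, 54.4% over 15 females, 53.5% with library totals only, 56.3% with every transcript with a count, 51% (51.02%) with a TPM above 2 in each Mm female, 35.5% with log2(TPM + 1), 28.7% with log2(TPM + 0.1), 46.5% with ranks of affiliation time, 55% (55.02%) with sample quality weights, 49.9% with the preference score as a term, 49.1% without females 6 and 12 and 31.6% with the exact Spearman test. Without 1 female at a time it ran from 58.2% to 63.2%. The fits on log2(TPM) and the exact Spearman test used TPM, and the others used counts. The cause of these differences was not tested. The count of slope differences, 1320 (6.09%), ran from 839 (3.872%, without female 12) to 1433 (6.613%, without female 13) and was 0 at the adjusted p-value. For the 4 named transcripts, the 8 fits without a female were the rule of the choice, so these alternatives could not differ. Most of the others refit the same 8 libraries. As a description, the 4 transcripts kept the direction of their slope in 25 of 25 alternatives. They kept their side of the unadjusted threshold in all but 1, the exact Spearman test of ENSPLAT00000011404.1. The slope of that transcript, -4.03, was -2.30 in edgeR and -2.46 in DESeq2. On log2(TPM + 1) it was -0.93, that of ENSPLAT00000024943.1 was 1.00 and that of ENSPLAT00000006264.1 was -0.85, and on log2(TPM + 0.1) that of ENSPLAT00000015056.1 was 3.64. With a TPM above 2 in each Mm female none of the 4 was tested. The relation of affiliation time with the library total changed sign in ranks (rho = 0.0476). No female's number occurs in both contexts, so no paired analysis was possible because the contexts share no replicate number. Low levels limit 3 of the named transcripts, which are listed at 0 in some Mm females.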

Other observations

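Standard length and the number of transcripts with an estimated count above 0 were closely related in the 8 Mm females, with r = 0.98 (exact permutation p = 0.000248, adjusted p = 0.00198 over 8 tests) and rho = 0.952 (exact permutation p = 0.00114, adjusted p = 0.00228), and r = 0.963 with the 2 most extreme lengths left out. With every library reduced in calculation to the same total of 3424583 counts, r was 0.95 (exact permutation p = 0.000521, adjusted p = 0.00208), rho was 0.952 (exact permutation p = 0.00114) and r without the 2 farthest females was 0.978. At that depth the number ran from 21905 in female 11 (32.3 mm) to 23512 in female 5 (47.8 mm). In the 7 Ff females the same relation at that depth had r = 0.205 (exact permutation p = 0.65), rho = 0.214 (exact permutation p = 0.662) and r = 0.113 without the 2 farthest females. The difference between the contexts was not tested. Length was 40.5 to 51.4 mm in females 3 to 6 and 32.3 to 44.6 mm in females 10 to 13, and the part of the number group in this relation was not tested. The relation was noticed in these data and then tested on them.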
